A study of Rattus norvegicus with 49 samples.

Results

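The genes described here encode the plasma proteins of complement and coagulation and the proteins that restrain them. They were taken by symbol from a list of 41 genes. For each gene, the probe sets (groups of short array probes for the same transcript) annotated with that symbol alone were kept, and the brightest of them by mean log2 intensity stood for the gene. Of the 41 genes, 35 had such a probe set, among 14217 genes measured in the same way. Kng1, C2 and Cfb, 3 genes in all, were only on probe sets shared with other genes, and F7, F11 and F13b, another 3, were on none of the annotated probe sets and were not analysed here.

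Both systems are cascades of zymogens, proteins that circulate inactive until another protease cuts them. Coagulation ends in thrombin, which turns fibrinogen into a fibrin clot, and complement ends in a pore of C5b to C9 that is inserted into membranes. Hepatocytes make most of these proteins and secrete them into plasma, and several are known as acute phase proteins whose transcripts respond to interleukin-6 through STAT3 and C/EBP factors.

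Liver RNA of 49 male Sprague Dawley rats, 8 to 10 weeks old when the diets began, was measured with 1 Affymetrix array per rat. Group 1 ate freely and was not fasted. Groups 3, 4 and 5 were given 15%, 30% and 60% less of the powdered feed, and group 2 as much as it ate. All 4 of these groups went without food overnight before the liver was taken. Group 2 is the control to which the other groups were compared on the same day. Livers were taken after 4 or 14 days, from 5 rats per group and day, except 4 rats of group 1 at day 14. Every comparison with group 2 on 1 day used the same 5 control rats, so these comparisons are not independent of each other.

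The medians of the 49 arrays ran from 6.34 to 6.43 (log2 intensity), and arrays of the same group correlated at a median of 0.991 to 0.9935. The labels name liver, while the study's methods write of RNA from hepatocytes and then of homogenized tissues. The homogenate was taken here as whole liver, in which fewer cells of a type and less RNA per cell cannot be told apart. The mean log2 intensity of 6 hepatocyte markers (among them Alb and Ttr) lay between 13.79 and 14.18 in every rat. Single markers of this list moved more, and in opposite directions. At day 14 Tat averaged 11.97 in group 2 and 13.20 in group 5, and Apoa1 averaged 14.14 and 13.52. The adipocyte markers Adipoq, Plin1, Fabp4 and Lep averaged 4.64 to 4.77, below 4.94, the 25th percentile of all probe sets, here called the dim level. The 2 measured erythroid markers of 3 listed, Hbb and Alas2, moved with the diet: at day 14 their mean log2 level was 9.22 to 10.67 in the rats of group 4 and 8.07 to 9.12 in those of group 5, against 10.30 to 10.85 in group 2. The mean of the 5 stellate cell and fibroblast markers was on average higher in unfasted rats. It was 8.41 to 8.65 in group 1 and 7.89 to 8.43 in group 2 at day 4, which overlapped. At day 14 it was 8.49 to 8.69 in group 1 and 7.86 to 8.31 in group 2, but 8.25 to 8.62 in the fasted group 4. Not every marker of the list took part: Reln averaged 9.96 in group 1 and 9.98 in group 2 at day 4. The part of these lists in the results below was not tested.

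The measured complement and coagulation genes were among the brightest on the array and varied little between rats. Of the 35 genes, 34 were in the top 10% of probe sets by mean, and the lowest, Cfd, stood at a percentile of 83.9. The SD within groups had a median of 0.077 over the 35 genes, against 0.141 over all 14217 genes and 0.108 over the 1422 genes of the brightest 10%. The brightest 10% are not matched in level, with a median of 11.52 against 13.05 for the 35 genes. The highest log2 intensity on any array was 15.01. Whether probe sets so near the top of the scale show smaller spreads and changes than the RNA itself was not tested. The highest and the lowest of the 10 group means differed by less than 0.3 for 25 of the genes. They differed by more than 0.5 for 6 genes, namely C6 (1.62), Mbl2 (0.81), F5 (0.77), Klkb1 (0.61), Masp1 (0.56) and Cfd (0.53). Because a probe set's intensity depends on its probes, levels are compared here between groups for the same probe set and never between genes. With limma fitted to the rats of each comparison alone, 9 of the 35 genes passed the test in at least 1 of the 8 comparisons with group 2 and 26 in none. With limma fitted once to all 49 rats, 23 did, among them those 9. The matching share of all genes was not computed for either fit, so these totals do not set the 35 genes apart. Calls below are from the separate fits unless the single fit is named.

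**Figure D1:**
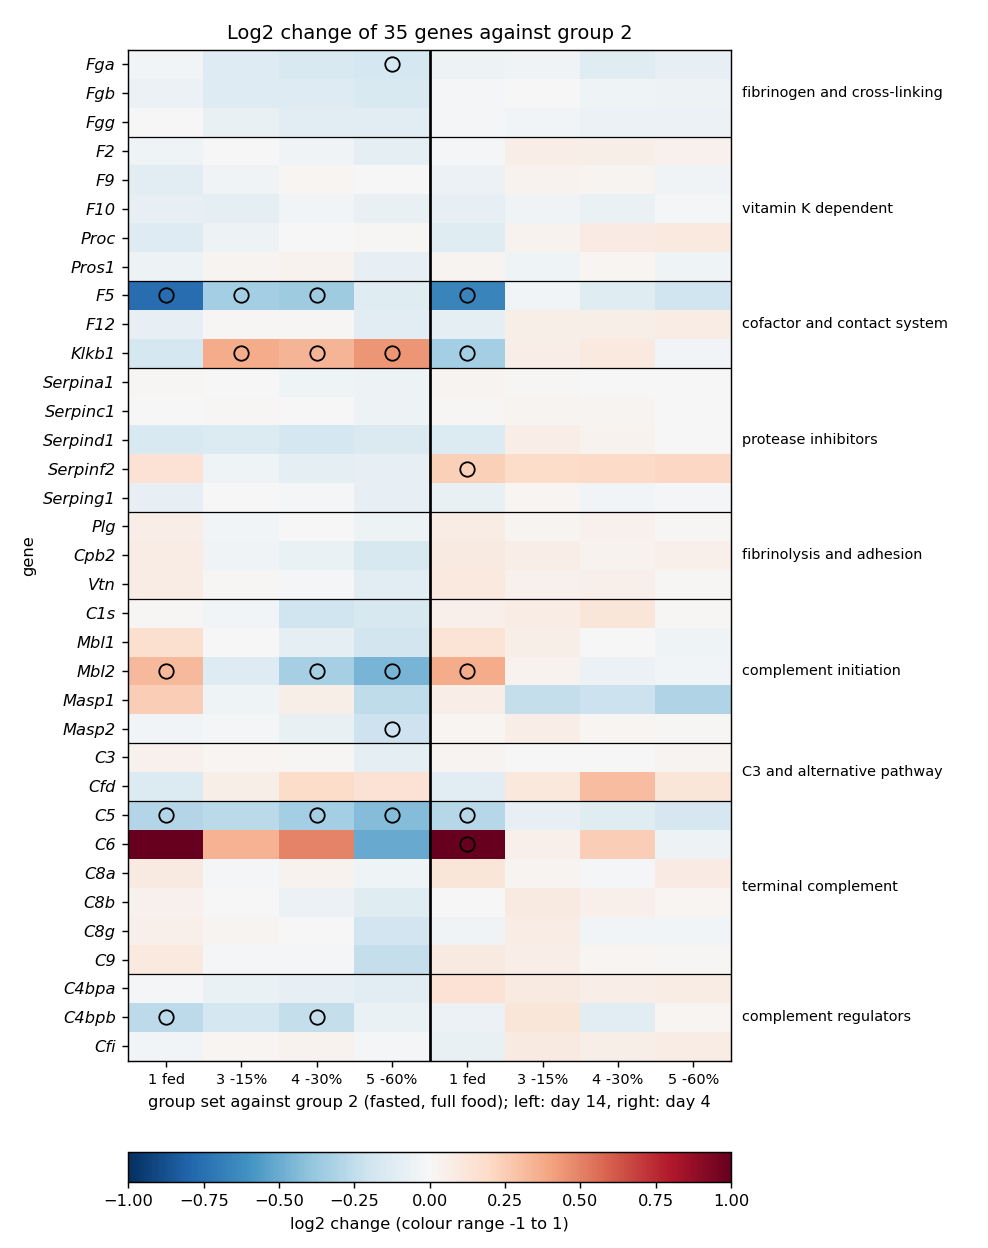
Log2 change of each of the 35 genes (rows, ordered by role) in groups 1, 3, 4 and 5 against group 2 at day 14 (left) and day 4 (right), on a colour scale from −1 to 1; C6 in group 1 lies just past the end of the scale. Circles mark genes with a limma adjusted p under 0.1, and most lie in the rows of F5, Klkb1, Mbl2 and C5, with 4 circles each.

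The comparison of unfasted with fasted rats gave 6 called genes at day 4 and 4 at day 14. A gene was called at a limma adjusted p under 0.1 over all genes. At day 4, 3 of 35 genes were higher and 3 lower in group 1 than in group 2, where 9.76% of all genes were higher and 11.5% lower. At day 14, 1 was higher and 3 were lower, beside 7.26% and 5.92% of all genes. The shares of the 35 genes (8.57% in each direction at day 4, 2.86% and 8.57% at day 14) were therefore near or below those of all genes apart from the lower calls at day 14.

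None of the 3 restricted groups had a call against group 2 at day 4 in the separate limma fits, while the single fit called Serpinf2 in group 4 and F5 and Serpinf2 in group 5. In group 3 at day 4, 1 gene had an unadjusted p under 0.05, and 0.113% of all genes were called higher and 0.141% lower. In group 4 at day 4, 2 genes did, with 3.05% and 2.38% of all genes called, and in group 5 again 2, with 3.56% and 3.58%. These shares are at a limma adjusted p under 0.1. The share of all genes at an unadjusted p under 0.05 was not computed for any comparison. Counts at that threshold therefore do not set the 35 genes apart. At day 14, group 3 had 1 gene higher and 1 lower (3.4% and 3.14% of all genes), group 4 had 1 higher and 4 lower (6.52% and 6.24%), and group 5 had 1 higher and 4 lower (8.88% and 10.9%). In group 5 at day 14 the median log2 change of the 35 genes was −0.11, against 0.00 over all genes and −0.04 over the brightest 10%. Of the 35 changes, 31 were negative, beside 56.9% of those of the brightest 10%. The median of the 35 genes was 0.00 in group 5 at day 4, with 17 negative changes, beside 48.7% of the brightest 10%. The share of negative changes over all genes was not computed.

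Fibrinogen, the precursor of the clot, is built of alpha, beta and gamma chains encoded by Fga, Fgb and Fgg, and F13b encodes the carrier subunit of the enzyme that cross-links fibrin. The 3 measured genes had negative changes in group 5 at day 14, and 1 was called. Fga measured 13.88, 13.90, 13.91, 13.92 and 14.02 in group 5 at day 14, against 14.01, 14.07, 14.09, 14.15 and 14.15 in group 2. A single rat of group 5, the highest, reached the range of the controls. The log2 change was −0.17 (standard error 0.061, limma adjusted p = 0.0827), which is a signal 11.2% lower on this probe set. Fgb and Fgg changed by −0.16 (adjusted p = 0.126) and −0.11 (adjusted p = 0.267). The call of Fga was lost when any of 8 of the 10 rats was left out (all but 754 and 766), with an adjusted p of up to 0.17.

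A second probe set of Fga, dimmer than the first, showed a much larger difference. It measured 11.55, 11.88, 11.89, 12.15 and 12.22 in group 5 at day 14, against 12.45, 12.50, 12.70, 12.94 and 13.55 in group 2. The groups did not overlap, and the log2 change was −0.89. In group 3 the second probe set changed by −0.72 and the first by −0.13, and in group 4 by −0.66 and −0.16. At day 4 the second probe set averaged 12.59 in group 3, 12.25 in group 4 and 12.22 in group 5, against 12.79 in group 2. The controls were spread widely on it, with an SD of 0.55 at day 4 and 0.45 at day 14. Calls were taken from the brightest probe set alone, and no p-value is given here for the second probe set. Its means in the restricted groups lay further from group 2 than those of the first. The other 2 probe sets of Fgb averaged 4.22 and 5.28 in group 5 at day 14, near the dim level, and were not read.

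**Figure D2:**
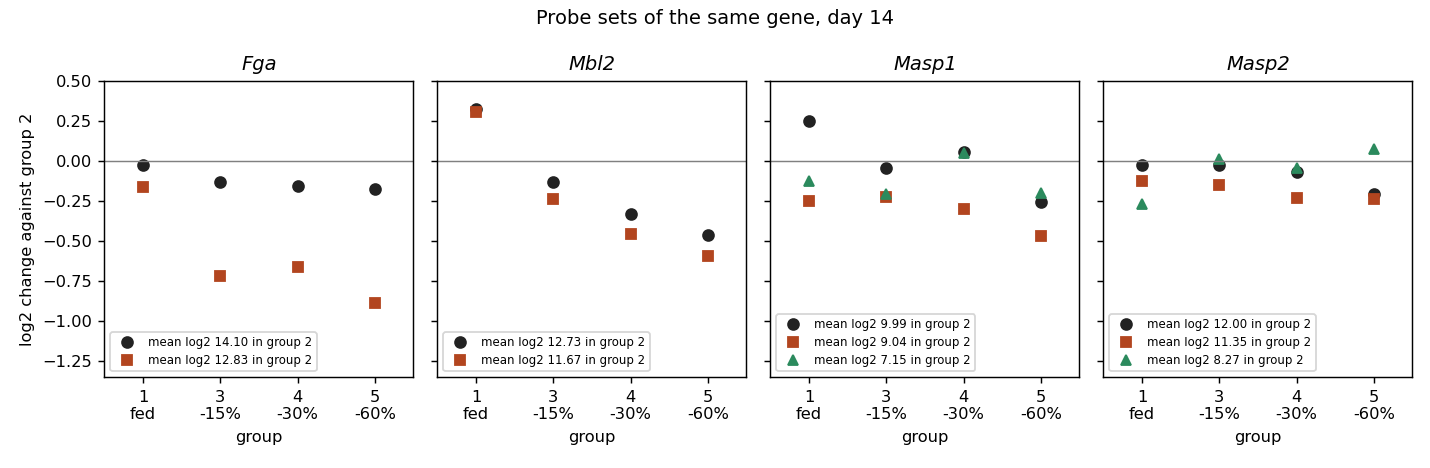
Log2 change against group 2 at day 14 (vertical axis) in groups 1, 3, 4 and 5 for each probe set of Fga, Mbl2, Masp1 and Masp2; symbols are probe sets, labelled by their mean log2 level in group 2. The probe sets of Mbl2 lie close together, those of Fga lie apart in the restricted groups (−0.17 and −0.89 in group 5), and those of Masp1 and Masp2 differ in sign in some groups.

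The vitamin K dependent proteins are proteases and cofactors that need a carboxylated domain to bind membranes: prothrombin (F2), factors VII, IX and X (F7, F9 and F10), and the anticoagulants protein C (Proc) and protein S (Pros1). None of the 5 measured genes was called in the separate limma fits against group 2, where Proc had an unadjusted p under 0.05 in group 1 at both days. The single fit called Proc in group 1 at both days and F2 in group 5 at day 14. Proc measured 12.81, 12.85, 12.88, 12.96 and 12.96 in group 1 at day 4, below all rats of group 2 (12.98 to 13.04), a change of −0.12 (adjusted p = 0.147 in the separate fit). The largest change in group 5 at day 14 was that of F2, which measured 13.72, 13.74, 13.75, 13.76 and 13.83 in group 5 and 13.80, 13.83, 13.86, 13.86 and 13.89 in group 2. The highest rat of group 5 overlapped with the controls, and the change was −0.09 (standard error 0.056, adjusted p = 0.36). Pros1 changed by −0.09 and F10 by −0.08, while F9 (0.00) and Proc (0.01) stood at the level of group 2.

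Among the cofactor and contact system genes, F5 and Klkb1 were called and F12 was not. F5 encodes factor V, the cofactor with which factor Xa converts prothrombin, and it was low in unfasted rats. At day 4 it measured 11.27, 11.50, 11.56, 11.58 and 11.63 in group 1, against 12.06, 12.10, 12.18, 12.19 and 12.32 in group 2. At day 14 it measured 11.34, 11.45, 11.53 and 11.56 in group 1, against 12.18, 12.20, 12.24, 12.24 and 12.31 in group 2. Neither day had any overlap, and the lowest fasted rat of any group (11.71) was above the highest of the 9 unfasted rats (11.63). Among all genes, 0.675% had every unfasted rat below all 40 fasted rats, and F5 was the only 1 of the 35 genes with such a pattern in either direction. The log2 change was −0.66 at day 4 (standard error 0.077, adjusted p = 0.00022) and −0.77 at day 14 (standard error 0.065, adjusted p = 7.79e-05), so the level fell by 36.9% at day 4 and fell by 41.2% at day 14.

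F5 also differed between the restricted rats and group 2. At day 14 it measured 11.84, 11.86, 11.89, 11.91 and 11.97 in group 3 and 11.71, 11.75, 11.87, 11.94 and 12.10 in group 4, all below the lowest of group 2 (12.18). The changes were −0.34 in group 3 (adjusted p = 0.00362) and −0.36 in group 4 (adjusted p = 0.0146). In group 5 at day 14 it measured 11.92, 12.06, 12.08, 12.25 and 12.26, which overlapped with group 2, and the change was −0.12 (adjusted p = 0.358). The means did not follow the reduction in food at day 14, but the difference between the restricted groups did not pass the test. Group 5 was higher than group 3 by 0.22 (adjusted p = 0.114) and higher than group 4 by 0.24 (adjusted p = 0.311).

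These 2 comparisons between restricted groups were added after the values had been seen. By limma they gave no call among the 35 genes. Of all genes, 3.76% were called higher and 5.79% lower in group 5 than in group 3, and 0.0914% and 0.274% than in group 4. At an unadjusted p under 0.05 there were 9 and 6 of the 35 genes, and no share of all genes was computed at that threshold. At day 4, F5 was called in the fit against the percentage of food removed. It measured 11.76, 11.88, 12.05, 12.07 and 12.09 in group 5 at day 4, a change of −0.20 (adjusted p = 0.197), while the straight line over groups 2 to 5 fell by 0.21 (adjusted p = 0.0425). The trend at day 4 was lost without 1 rat of group 5 (rat 742), with an adjusted p of 0.116.

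Klkb1 encodes prekallikrein, the protease that activates factor XII (F12) and releases bradykinin from kininogen (Kng1). It was higher than in group 2 in every restricted group at day 14. Klkb1 measured 12.58, 12.62, 12.74, 12.87 and 12.92 in group 3, 12.56, 12.64, 12.69, 12.82 and 12.85 in group 4, and 12.72, 12.74, 12.77, 12.92 and 12.92 in group 5, against 12.17, 12.32, 12.36, 12.47 and 12.55 in group 2. All 5 rats of each restricted group stood above all 5 of group 2. The changes were 0.37 in group 3 (adjusted p = 0.0349), 0.34 in group 4 (adjusted p = 0.0277) and 0.44 in group 5 (standard error 0.083, adjusted p = 0.00408), and the last is a level 35.7% higher.

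At day 4 the restricted groups did not differ from group 2 in Klkb1. Group 5 measured 12.49, 12.55, 12.59, 12.61 and 12.76 and group 2 measured 12.43, 12.59, 12.62, 12.63 and 12.85, a change of −0.03 (adjusted p = 0.909). The difference between days of the change in group 5 was 0.47 (standard error 0.114, adjusted p = 0.0648). It was the only call among the 35 genes in that comparison, where 0.844% of all genes were positive calls and 1.2% negative calls. Both groups contributed to it, since Klkb1 was 0.21 higher at day 14 than at day 4 in group 5 (adjusted p = 0.125) and 0.25 lower at day 14 than at day 4 in group 2 (adjusted p = 0.493). This call was lost when any of 5 of the 20 rats was left out (rats 741, 742, 754, 768 and 729), with an adjusted p of up to 0.126. In group 3 Klkb1 was 0.06 higher at day 14 than at day 4 (limma adjusted p = 0.698). In group 4 it was 0.01 lower (limma adjusted p = 0.962). Groups 3 and 4 thus stayed near their day 4 level, while the mean of group 2 was lower at day 14.

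In unfasted rats Klkb1 was lower at day 4, with 11.95, 12.25, 12.29, 12.39 and 12.56 in group 1, and its change was −0.34 (adjusted p = 0.0574). The highest unfasted rat overlapped with group 2 and the other 4 lay below it. At day 14 group 1 measured 12.06, 12.18, 12.20 and 12.36, a change of −0.17 (adjusted p = 0.296). The call at day 4 was lost without rat 722, 723 or 729, with an adjusted p of up to 0.131. F12 changed by −0.12 in group 5 at day 14 (adjusted p = 0.231). Kng1 shared its probe set with Kng2 and Kng2l1, so that transcripts of the 3 genes could not be told apart. Its level at day 14 was 13.58 ± 0.18 in group 5 and 13.47 ± 0.07 in group 2 (SD over 5 rats).

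The inhibitors of these proteases are serpins: antithrombin (Serpinc1), heparin cofactor II (Serpind1), the plasmin inhibitor (Serpinf2), the C1 inhibitor (Serping1) and the elastase inhibitor Serpina1. All 5 had negative changes in group 5 at day 14 and none was called. Serpind1 measured 13.28, 13.31, 13.34, 13.37 and 13.37 in group 5, against 13.36, 13.47, 13.48, 13.50 and 13.59 in group 2. The ranges touched only at the lowest control rat, and the change was −0.15 (standard error 0.062, adjusted p = 0.149). Serpinf2 was called in the separate fits, higher by 0.24 in group 1 at day 4 (adjusted p = 0.0735). It measured 12.64, 12.71, 12.78, 12.82 and 12.84 in group 1, against 12.33, 12.37, 12.58, 12.60 and 12.74 in group 2. The highest rat of group 2 reached into the range of group 1. The single fit also called Serpind1, in group 1 at both days and in groups 3, 4 and 5 at day 14.

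Plasminogen (Plg) yields plasmin, which dissolves fibrin. Cpb2 encodes a carboxypeptidase that slows this step, and Vtn encodes vitronectin, an adhesive plasma protein that also binds the terminal complement complex. The changes in group 5 at day 14 were −0.05, −0.16 and −0.11, and none was called. Cpb2 measured 12.90, 13.04, 13.08, 13.09 and 13.25 in group 5, against 13.13, 13.14, 13.28, 13.29 and 13.32 in group 2. Of the rats of group 5, 4 were below all controls and 1 was among them, and the adjusted p was 0.207.

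Complement starts on microbes and damaged cells through the mannose-binding lectins (Mbl1 and Mbl2) with their proteases (Masp1 and Masp2), or through antibody and the C1 complex, of which C1s is a protease that cuts C2. Mbl2 was high in unfasted rats and low in the restricted rats at day 14. It measured 12.99, 13.02, 13.04, 13.16 and 13.19 in group 1 at day 4, against 12.50, 12.70, 12.74, 12.78 and 12.82 in group 2. The change was 0.37 (standard error 0.072, adjusted p = 0.00499) with no overlap. At day 14 it measured 12.93, 12.99, 13.02 and 13.28 in group 1, against 12.55, 12.74, 12.76, 12.80 and 12.81 in group 2, again without overlap, and the change was 0.32 (adjusted p = 0.0446).

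With restriction the sign turned. At day 14 Mbl2 measured 12.26, 12.26, 12.42, 12.47 and 12.59 in group 4 and 12.04, 12.14, 12.25, 12.33 and 12.60 in group 5. The highest rat of each of these groups lay just above the lowest of group 2, and the other rats lay below all controls. The changes were −0.33 in group 4 (adjusted p = 0.0257) and −0.46 in group 5 (standard error 0.101, adjusted p = 0.00975), and in group 5 the level fell by 27.4%. In group 3 the change was −0.13 (adjusted p = 0.585). At day 4 the rats of group 5 were spread widely, with 12.20, 12.49, 12.73, 12.89 and 13.10, and the change was −0.03 (adjusted p = 0.954). The test of the difference between the days did not pass (−0.44, adjusted p = 0.307).

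The second probe set of Mbl2 followed the first. Its day 14 level was 11.07 ± 0.23 in group 5 and 11.67 ± 0.08 in group 2 (SD over 5 rats), a change of −0.59, and the rats of these groups did not overlap (10.75 to 11.38 in group 5, 11.53 to 11.74 in group 2). In group 1 its changes were 0.39 at day 4 and 0.30 at day 14.

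Masp2 was lower in group 5 at day 14, with 11.61, 11.73, 11.84, 11.89 and 11.91, against 11.94, 11.96, 11.99, 12.01 and 12.11 in group 2. The groups did not overlap, but the difference was small, at −0.21 (standard error 0.073, adjusted p = 0.0841), and the call was lost when any of 8 of the 10 rats was left out (all but 766 and 769), with an adjusted p of up to 0.181. The call was also lost with the mean of its 3 probe sets, which changed by −0.21, −0.24 and 0.08, and after a further quantile normalization. Masp1 changed by −0.25 in group 5 at day 14 (adjusted p = 0.384) on its brightest probe set and by −0.47 and −0.20 on the others. Mbl1 changed by −0.18 (adjusted p = 0.271) and C1s by −0.16 (adjusted p = 0.31). C1s passed the test in group 4 between days, with 12.51, 12.57, 12.58, 12.68 and 12.91 at day 14, against 12.86, 12.92, 12.95, 13.02 and 13.07 at day 4 (−0.32, adjusted p = 0.0643). Of the rats at day 14, 4 lay below all rats of day 4.

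C3 is the central protein of complement, and factor D (Cfd) cuts factor B (Cfb) to form the alternative pathway's convertase. C3 measured 14.35, 14.43, 14.47, 14.50 and 14.51 in group 5 at day 14, against 14.52, 14.53, 14.55, 14.56 and 14.56 in group 2. These 5 rats lay below all 44 other rats, as they did for 0.246% of all genes and no other of the 35. The change was small, at −0.09, and was not called in the separate fit (adjusted p = 0.347) but was called in the single fit. Cfd, known in rodents mainly as a product of fat cells, measured 8.82, 8.92, 9.12, 9.36 and 9.51 in group 5 at day 14, against 8.85, 8.87, 9.0, 9.12 and 9.16 in group 2. The groups overlapped and the change was 0.15 (adjusted p = 0.534). Its mean over all arrays was 8.95, while the other 4 adipocyte markers were below the dim level. C2 and Cfb, neighbouring genes, shared 4 probe sets, which changed by −0.11, −0.26, −0.07 and −0.33 in group 5 at day 14, and the 2 genes could not be told apart.

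The terminal proteins C5, C6, C8 (chains C8a, C8b and C8g) and C9 assemble into the membrane attack complex after C5 is cut, which also frees the inflammatory peptide C5a. C5 was lower than in group 2 both in unfasted and in restricted rats. At day 14 it measured 12.06, 12.12, 12.20, 12.23 and 12.25 in group 4 and 11.91, 12.08, 12.11, 12.15 and 12.17 in group 5, against 12.38, 12.45, 12.47, 12.63 and 12.65 in group 2. Neither restricted group overlapped with the controls. The changes were −0.27 in group 3, which was not called (adjusted p = 0.125), −0.34 in group 4 (adjusted p = 0.0125) and −0.43 in group 5 (standard error 0.078, adjusted p = 0.00339). At day 4 group 5 measured 12.16, 12.25, 12.27, 12.31 and 12.32, a change of −0.17 (adjusted p = 0.35).

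In unfasted rats C5 measured 12.03, 12.10, 12.13, 12.22 and 12.25 at day 4, against 12.26, 12.28, 12.35, 12.55 and 12.71 in group 2, with no overlap. The unfasted rats of day 14 measured 12.05, 12.22, 12.30 and 12.31, below all rats of group 2. The change was −0.29 at day 4 (adjusted p = 0.0523) and again −0.29 at day 14 (adjusted p = 0.056). The call at day 4 was lost without rat 723, 725 or 727, with an adjusted p of up to 0.114, and the call at day 14 without rat 748, 750, 752 or 755, with an adjusted p of up to 0.132. C5 and Mbl2 were thus both lower in groups 4 and 5 at day 14, while in the unfasted rats Mbl2 was higher and C5 lower.

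C6 varied most of the 35 genes, with an SD within groups of 0.54, and it was high in unfasted rats. At day 4 it measured 10.52, 10.69, 10.87, 11.07 and 11.56 in group 1, against 9.10, 9.73, 10.01, 10.40 and 10.43 in group 2. The groups did not overlap, and the log2 change of 1.01 (standard error 0.258, adjusted p = 0.0215) corresponds to a level 2.01 times that of group 2. C6 at day 14 was 10.30, 10.87, 10.91 and 11.37 in group 1, against 8.91, 9.01, 10.04, 10.49 and 10.69 in group 2. The change had about the same size, 1.03, but the 2 highest controls overlapped with the lowest unfasted rat and the adjusted p was 0.12. In group 5 at day 14 C6 measured 8.48, 9.31, 9.40, 9.46 and 9.97, a change of −0.50 with wide overlap (adjusted p = 0.427). All 5 of these rats lay below the rats of group 4, which measured 10.08, 10.11, 10.45, 10.47 and 10.50, a difference of −0.996 in the comparison added later that was not called (adjusted p = 0.127).

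**Figure D3:**
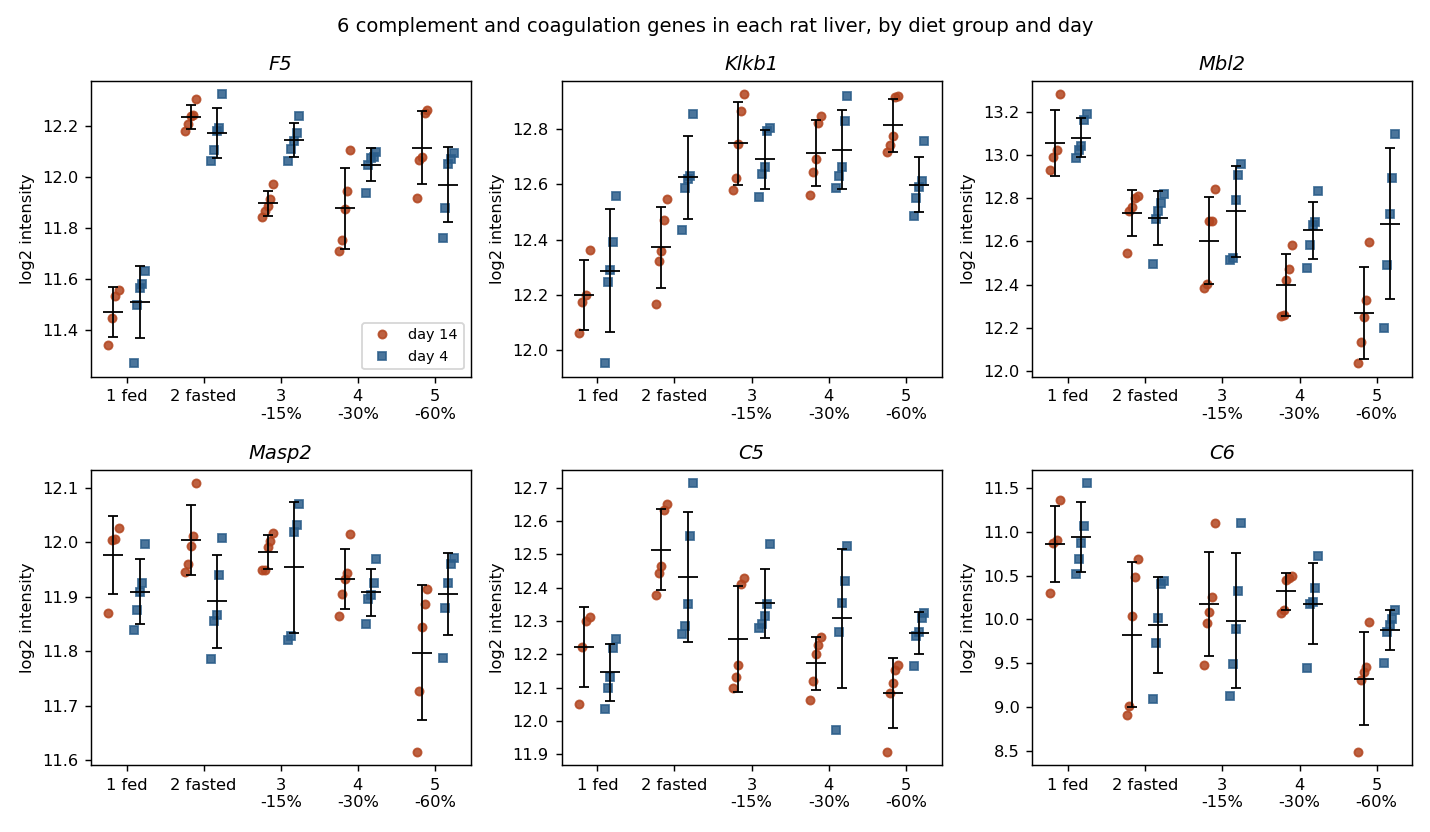
Log2 intensity (vertical axes, each with its own range) of F5, Klkb1, Mbl2, Masp2, C5 and C6 in every rat, by group; circles are day 14, squares day 4, and black lines give the mean and SD of a group. Rats of a group are drawn in the order of their values. Every unfasted rat lies below all fasted rats in F5, and group 5 at day 14 lies above group 2 in Klkb1 and below it in C5.

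The other terminal genes had negative changes in group 5 at day 14 that were not called: C9 (−0.24, adjusted p = 0.115), C8g (−0.19, adjusted p = 0.159), C8b (−0.12, adjusted p = 0.252) and C8a (−0.05, adjusted p = 0.774). C9 measured 13.46, 13.48, 13.65, 13.75 and 13.80 in group 5, against 13.74, 13.75, 13.80, 14.00 and 14.04 in group 2. The 2 highest rats of group 5 overlapped with the 3 lowest controls.

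Complement is held in check by C4b-binding protein, whose chains are C4bpa and C4bpb, and by factor I (Cfi), a protease that inactivates C3b and C4b. C4bpa measured 13.34, 13.37, 13.45, 13.46 and 13.51 in group 5 at day 14, against 13.42, 13.46, 13.47, 13.59 and 13.71 in group 2, an overlapping pair with a change of −0.10 (adjusted p = 0.415). C4bpb was lower in group 1 at day 14, with 12.70, 12.86, 12.89 and 12.94, and in group 4, with a lowest rat of 12.73 and a median of 12.89, against 12.94, 13.02, 13.10, 13.19 and 13.29 in group 2. The changes were −0.26 in group 1 (adjusted p = 0.0873) and −0.24 in group 4 (adjusted p = 0.094), and the lowest control did not lie above the highest rat of either group. In group 5 it measured 12.88 to 13.13, a change of −0.07 (adjusted p = 0.688). Cfi changed by −0.02 (adjusted p = 0.904).

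A straight line was fitted through groups 2, 3, 4 and 5 against the percentage by which food was cut, with 20 rats per day, and it called more of these genes at day 14. It is given as the fitted log2 change over the 60 percentage points between full food and 60% less. At day 14, 12 of the 35 genes fell with the reduction (34.3%) and 1 rose (2.86%), where 13.2% of all genes fell and 10.8% rose. Among the 1422 genes of the brightest 10%, 25.6% fell and 16.8% rose. The genes that fell came from both cascades: the fibrinogen chains Fga and Fgb, F12, Cpb2 and Vtn, the lectin pathway genes Mbl1, Mbl2 and Masp2, and C5, C8b, C8g and C9 of the terminal pathway.

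Among the called genes, the steepest falls were those of Mbl2 (−0.47, adjusted p = 0.00186) and C5 (−0.39, adjusted p = 0.00186), followed by C9 (−0.24, adjusted p = 0.0216), Masp2 (−0.21, adjusted p = 0.00746) and C8g (−0.21, adjusted p = 0.0351). The other 7 fell by 0.12 to 0.20, and Klkb1 rose by 0.36 (adjusted p = 0.0111). No gene of the vitamin K dependent, serpin or regulator groups passed in this fit. The single fit called 16 genes that fell (15.5% of all genes) and 1 that rose (13.1%), F2, Serpind1, Fgg and C3 among those that fell. At day 4 F5 alone passed, falling, where 4.02% of all genes fell and 4.8% rose. The trend at day 14 was not tested against that at day 4. The call of Cpb2 was lost without any of 6 rats (751, 752, 755, 767, 768 and 770) and that of Fga without rat 752 or 755, and that of Masp2 with the mean of its probe sets. Without single rats, the number of genes called at day 14 ran from 7 to 15.

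**Figure D4:**
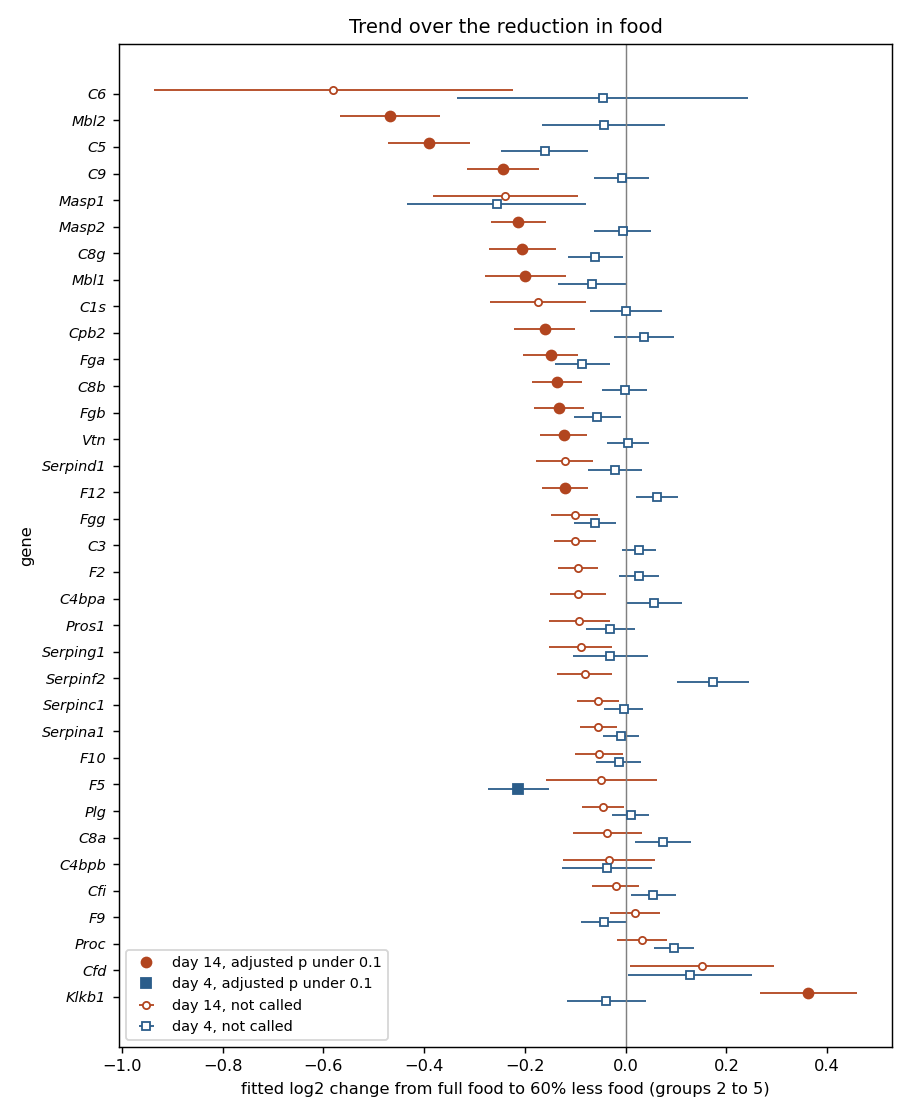
Fitted log2 change from full food to 60% less food in groups 2 to 5 (horizontal axis) for each of the 35 genes, at day 14 (circles, upper) and day 4 (squares, lower); bars are standard errors and filled symbols have a limma adjusted p under 0.1. At day 14 most genes lie left of 0, with 12 filled on that side and Klkb1 filled on the right.

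Between the days, the separate fits gave few calls. In group 3, F5 was lower at day 14 than at day 4 (−0.25, adjusted p = 0.0211), the only call of the 35 genes, where 8.93% of all genes were higher and 3.85% lower. In group 4, C1s was the only call (3.64% and 1.84% of all genes). In group 5 none was called by the separate limma fit, where 3.9% and 2.81% of all genes were called. There 8 of the 35 genes had an unadjusted p under 0.05, a threshold at which the share of all genes was not computed. The single fit called 8 genes lower at day 14 in group 5 (6.5% of all genes), namely Fga, F12, Serpinf2, Mbl2, C3, C8b, C8g and C9. In group 1 no gene was called and none of the 35 had an unadjusted p under 0.05 (0% and 0% of all genes). In group 2 none was called and 1 of the 35 had an unadjusted p under 0.05 (0.00703% and 0%).

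The choice of fit decided how many of these small differences were called. When all 10 groups were fitted together, so that the spread was estimated from 49 rats, 17 genes were called in group 5 at day 14, 16 of them lower (14.7% of all genes lower and 12.8% higher in that fit), in place of 5. Those 16 were Fga, Fgb, Fgg, F2, F12, Serpind1, Cpb2, Vtn, Mbl1, Mbl2, Masp2, C3, C5, C8b, C8g and C9. In that fit the difference of F5 between group 5 and group 3 and between group 5 and group 4 at day 14 was called as well.

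Of 37 listed genes of the same cascades that were not among the 41, 29 were measured. In group 5 at day 14, 3 of the 29 were lower and none higher, beside 10.9% of all genes lower and 8.88% higher. C1r, the partner of C1s, changed by −0.42 (adjusted p = 0.0293), Fcna, a ficolin that like the lectins starts complement, by −0.42 (adjusted p = 0.0138), and Clu, clusterin, by −0.27 (adjusted p = 0.0495). In group 1, Vkorc1, the reductase that recycles vitamin K, was higher by 0.46 at day 4 (adjusted p = 0.000967) and by 0.38 at day 14 (adjusted p = 0.00564). Of all genes, 9.76% were higher in group 1 at day 4 and 7.26% at day 14. Vkorc1 is given as a single gene of the 29, whose calls in group 1 are not counted here.

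Of 15 genes that induce the acute phase or belong to it, 14 were measured. In group 5 at day 14, the receptor genes Il6r (1.10, adjusted p = 0.00338) and Il6st (0.41, adjusted p = 0.0184) and the transcription factor Cebpb (0.97, adjusted p = 0.00995) were higher and none was lower, beside 8.88% of all genes higher and 10.9% lower. In unfasted rats 1 of the 14 was higher and 4 were lower at day 4, beside 9.76% and 11.5% of all genes. At day 14, 2 were lower, beside 7.26% of all genes higher and 5.92% lower. Lbp, the lipopolysaccharide-binding protein, was lower at both days. It fell by 1.13 at day 4 (limma adjusted p = 0.00133) and fell by 1.05 at day 14 (limma adjusted p = 0.00704).

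Beyond the diets, some of the 35 genes varied together from rat to rat. After each group's mean was taken out, the 595 pairs had a median Pearson correlation of 0.11 over 49 rats, with 24 pairs above 0.5. These correlations are descriptive, and the rats' values share 1 array each and its normalization. The highest were those of Fga with Fgg (0.77) and of Fgb with Fgg (0.76), 3 genes in a row on chromosome 2 with Fga in the middle, and those of C5 with C4bpa (0.63) and of C9 with Fgg (0.61). C8a and C8b, which lie side by side, correlated at 0.27. A further 21 pairs were below −0.3, the lowest at −0.52. The median correlation of F5 with the other genes was −0.08 and that of Klkb1 was 0.01.

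The sequence before the transcription start of 5 genes is shown because their levels differed most or because it holds a searched motif. RefSeq promoters of the rat genome build GRCr8 were at hand for 32 of the 41 genes, and the 250 bases before the start were searched on both strands. The C/EBP motif TTGCNNAA was found in 11 of the 32 (34.4%), against 9.2% of 33469 promoters of the table. The 11 were C3, C4bpa, C6, C8a, C8b, F9, Fga, Fgb, Klkb1, Kng1 and Serpinc1. The STAT motif TTCCNNGAA was found in 5 (15.6%, against 4.3%), namely C4bpb, F9, Fga, Pros1 and Vtn, and the E-box CACGTG in C8a alone (3.1%, against 5.6%). The D-box letters TTATGTAA and TTACGTAA were in none, and they are in 0.8% and 0.1% of all promoters of the table. Capitals mark matches, which overlap nowhere in these sequences.
Fga, chr2:170671919-170672168, plus strand: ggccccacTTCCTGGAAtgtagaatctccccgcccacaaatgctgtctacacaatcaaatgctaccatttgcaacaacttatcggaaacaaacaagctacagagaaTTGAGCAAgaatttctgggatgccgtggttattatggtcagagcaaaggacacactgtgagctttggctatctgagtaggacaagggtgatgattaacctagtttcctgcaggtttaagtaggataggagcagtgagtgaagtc
Klkb1, chr16:53690976-53691225, plus strand: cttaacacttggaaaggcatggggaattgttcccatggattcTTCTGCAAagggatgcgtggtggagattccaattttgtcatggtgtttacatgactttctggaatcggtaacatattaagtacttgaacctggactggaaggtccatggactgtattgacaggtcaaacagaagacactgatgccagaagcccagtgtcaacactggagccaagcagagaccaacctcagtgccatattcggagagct
C6, chr2:55573383-55573632, plus strand: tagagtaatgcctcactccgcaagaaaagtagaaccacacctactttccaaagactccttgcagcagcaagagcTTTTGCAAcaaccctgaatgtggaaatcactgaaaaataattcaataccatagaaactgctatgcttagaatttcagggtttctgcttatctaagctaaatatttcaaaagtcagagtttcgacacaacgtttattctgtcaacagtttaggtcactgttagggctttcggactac
F5, chr13:79046407-79046656, plus strand: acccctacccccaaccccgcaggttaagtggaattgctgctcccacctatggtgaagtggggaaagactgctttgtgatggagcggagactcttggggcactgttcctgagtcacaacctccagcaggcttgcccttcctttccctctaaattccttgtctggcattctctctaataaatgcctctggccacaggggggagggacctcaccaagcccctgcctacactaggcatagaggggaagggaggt
Mbl2, chr1:237430793-237431042, plus strand: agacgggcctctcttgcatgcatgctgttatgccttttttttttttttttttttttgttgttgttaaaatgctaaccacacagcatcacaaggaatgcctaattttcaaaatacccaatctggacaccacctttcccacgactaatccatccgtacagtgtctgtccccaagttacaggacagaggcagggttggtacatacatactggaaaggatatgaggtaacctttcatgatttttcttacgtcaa

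Fga holds a STAT and a C/EBP match, Klkb1 and C6 each a C/EBP match, and F5 and Mbl2 none of the searched letters. The genes with a match included genes that fell with the reduction in food at day 14 (Fga, Fgb, C8b and Vtn), the gene that rose (Klkb1) and genes that this fit did not call (C4bpb, Pros1, C3, C6, C8a, C4bpa, F9 and Serpinc1), while Mbl2 and C5, the called genes with the steepest falls, held none of these letters in the window.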

How the data were processed

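Liver RNA of 49 rats was hybridised to Affymetrix rat genome arrays. The authors deposited 1 intensity per probe set and rat, normalized by RMA and rounded to whole numbers; per the labels and the submitters' processing notes, Affymetrix Expression Console and the R package affy 1.38.1 (R 3.0.1) were used. These intensities were converted to log2, which leaves steps of 0.017 at the median. Of 31042 probe sets, 20826 carried a single gene symbol, 436 several and 9780 none, which gave 14217 genes. RMA makes arrays alike in distribution, so a change shared by most genes would not be seen.

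Groups were compared with limma 3.58.1 (R 4.3.3) fitted to the rats of each comparison alone. P-values were adjusted by Benjamini-Hochberg over all 14217 genes, with a threshold of 0.1. This replaces the mixture model of the study's methods, which was not used. Python 3.11.15, numpy 2.4.6, pandas 2.3.3 and matplotlib 3.10.9 were used for tables and plots, and the fit was tested on simulated data. The labels give each rat its own number, so p-values measure the spread between rats, and the number of arrays limits the precision. The sample titles mark group 1 as not fasted, whereas the series' design text has every animal fasted overnight. The titles were followed, and what separates group 1 from group 2 rests on them.

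Members and gene lists were chosen with earlier results of these data known. Values in every rat are given for the called genes with the largest changes in group 5 (up to 6 per day), in group 1 (up to 3 per day) and between days (up to 3), and for the gene of each role with the largest change in group 5 at day 14. Rat values of Serpinf2, Proc, C1s, C3, C9 and C4bpb were added after they had been seen. Alternatives were an adjusted p of 0.05, 1 fit of all 10 groups, the mean of a gene's probe sets, a further quantile normalization, a filter on dim genes and leaving out each rat.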

Additional observations from a re-analysis of the deposited data

Results flagged for a closer look

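Within the 120 groups of rats of 12 genes that were examined, 5 held a rat that stood far from the others of its group, and chance gives about 1 in 20 such groups, or 5%. Fga was 14.02 in rat 766 of group 5 at day 14, while the other rats of that group lay between 13.88 and 13.92. Mbl2 was 12.55 in rat 752 of group 2 at day 14, against 12.74 to 12.81 in the other controls. Masp2 was 11.87 in rat 750 of group 1 at day 14, below the others, of which the highest was 12.03. C4bpa was 13.64 in rat 732 of group 3 at day 4 (13.41 to 13.45 in the others), and Serpind1 was 13.38 in rat 725 of group 1 at day 4 (13.24 to 13.28 in the others).

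The change of Klkb1 in group 5 against group 2 differed between day 14 and day 4 by 0.47 (limma adjusted p = 0.0648).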

How the results depend on the processing

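For the 28 calls among 12 genes, selected mostly for the largest changes, 497 values under the alternatives were computed. Of these values, 446 kept their direction and their side of the threshold, 51 kept the direction but were no longer called and 0 reversed. Calls of the other genes, among them Serpinf2, C4bpb and C1s, are not in these numbers. The numbers of called genes moved more. At an adjusted p of 0.05, 3 genes were called in group 1 at day 4, 2 in group 1 at day 14, 3 in group 5 at day 14, 0 in group 4 between days, 6 in the trend at day 14 and 0 in the interaction. With 1 fit of all groups there were, against group 2, at day 4 11 genes in group 1, 1 in group 4 and 2 in group 5. Of all genes that fit called 10.1% higher and 12.4% lower in group 1. In group 4 these shares were 4.15% and 3.76%, and in group 5 5.08% and 5.1%. Its counts for day 14 were 7 in group 1, 6 in group 3, 9 in group 4 and 17 in group 5. In the same order, the shares were 8.76% and 8.17%, 4.65% and 4.38%, 8.48% and 8.34%, and 12.8% and 14.7%. That fit also called 3, 3 and 8 genes between days in groups 3, 4 and 5, 2 in the trend at day 4, 11 between groups 5 and 3, 6 between groups 5 and 4, and 3 in the interaction. There the shares were 9.9% and 4.52%, 5.47% and 3%, 8.39% and 6.5%, 6.04% and 5%, 6.27% and 9.4%, 2.07% and 3.45%, and 1.92% and 2.87%. With the mean of the probe sets there were 2 between days in group 3, 2 in group 4, and 2 in the trend at day 4. After a further quantile normalization there were 2 between days in group 4, 1 in group 5, 3 between groups 5 and 3, and 2 in the interaction. Without dim genes, 1 was called between groups 5 and 3. Shares of all genes under the other alternatives are not given here, and the cause of these shifts was not tested.

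Leaving out single rats gave at day 4 3 to 7 genes in group 1 and 0 to 1 in group 5. At day 14 it left 2 to 4 in group 1, 2 to 3 in group 3, 4 to 5 in group 4 and 3 to 5 in group 5. It gave 1 to 2, 0 to 2 and 0 to 2 between days in groups 3, 4 and 5, 0 to 1 in the trend at day 4, 7 to 15 in the trend at day 14, 0 to 4 between groups 5 and 3, 0 to 1 between groups 5 and 4, and 0 to 2 in the interaction. No paired analysis was possible because the rats carry different numbers in every group.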
